A study of Homo sapiens with 8 samples.

Results

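The genes described here are 48 genes of autophagy and of the lysosome, grouped with DRAM1, a lysosomal membrane protein that p53 induces and that promotes autophagy. They were chosen by name. All 48 names were on the array among 36337 gene names, with 75 of 50599 probes. The study hybridized RNA of 2 human thyroid lines to 8 one-colour Agilent arrays, with 2 in each of 4 groups. Nthy-ori 3-1 (ORI), an immortalized line of non-tumoral follicular cells, received pre-miR-375, a precursor RNA that serves as a mimic of the miRNA, or was a control (CTL). TT, a line derived from a medullary thyroid carcinoma, which is a tumor of the calcitonin-producing C cells, was transfected with antagomiR-375, an antisense inhibitor, or was a control. The labels give 5 nM for the precursor, 20 nM for the antagomiR and 48 h for all, while the methods give higher concentrations for both reagents, and which applied to these arrays is not known. The methods name the control reagents pre-miR-CTL and antagomiR-CTL, and the labels only CTL. Each model is 1 established line. The methods call the replicates biological and do not say how they were grown. The p-values of a transfection measure the spread between 2 pairs of treated and control arrays. Those between the control groups measure the spread between 2 arrays per group.

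Arrays of the same replicate number in a line lay on 1 slide, and each slide held 1 line. The RNA integrity number was 8 on both TT control arrays and 9 on the other arrays, so RNA integrity and antagomiR treatment cannot be told apart. Between 32071 and 37340 spots per array were well above background and none was saturated. Markers of C cells set the lines apart, with 7 of 7 higher in TT control than in ORI control cells. CALCA, the calcitonin gene, was at least 18713-fold higher in TT, where the bound is the lowest signal well above background. The 8 follicular markers did not point one way. PAX8 (10.7 on the log2 scale, mean of 2 arrays) and FOXE1 (8.76) were bright in ORI and called lower in TT (limma, adjusted p at most 0.05). TG, NKX2-1 and DIO1 were called higher in TT, where NKX2-1 was at 12.3, and NKX2-1, DIO1 and TSHR were not well above background on either ORI control array. Of 4 mesenchymal markers 3 were called lower in TT, with VIM at 17.3 in ORI and 5.55 in TT, while CDH2 gave a difference of 0.87 (adjusted p = 0.0504, limma).

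Autophagy encloses cell material in a double membrane and delivers it to the lysosome. The ULK1 complex starts the process, a class III phosphatidylinositol 3-kinase complex marks the site, ATG9A, ATG2 and WIPI proteins supply and shape the membrane, and 2 ubiquitin-like conjugation systems attach ATG8 proteins (LC3 and GABARAP) to it. Cargo receptors tie cargo to ATG8, and the MiT/TFE transcription factors drive genes of the pathway and of the lysosome. miR-375 is abundant in neuroendocrine cells. A miRNA pairs with transcripts mainly through its seed, bases 2 to 8 of the mature strand. The mature miRNA is shown because the reagents add or block it, with the seed in capitals. It lies at chr2:219001648-219001669 on the minus strand (GRCh38.p14, sequence from RefSeq). The array has no probe for its gene.
hsa-miR-375-3p: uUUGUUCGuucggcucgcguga

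Signals are on the log2 scale after quantile normalization of the 8 arrays, and the brightest of a gene's probes stands for the gene. A difference is the mean over the 2 replicate pairs, treated minus control, with the standard error of the limma fit. No member passed an adjusted p of 0.05 (Benjamini-Hochberg, limma, over all probes) in either transfection, and neither did any other gene (background 0% in both). At an unadjusted p under 0.05 there were 15 of 48 members with the mimic (31.2%, against 14.9% of all gene names and 22.9% of those at an average signal of at least 6, which nearly all members reach) and 5 with the antagomiR (10.4%, against 9.82% and 10.2%). With 2 arrays per group an exact permutation test that ignores the pairs cannot go below p = 0.333. The fit by pairs had 1 residual degree of freedom. Genes are therefore called higher or lower by a fold rule, which is a description with no test. It asks for an average of at least 6 and a difference of at least 0.6, in the same direction, in each pair.

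With the mimic, 47 of the 48 members reached the average in ORI and ATG14 did not. Of these, 4 were lower by the fold rule, namely DRAM1, RB1CC1, ULK2 and BNIP3 (8.51%, background 6.31%), and 3 were higher, namely ULK1, ATG10 and GABARAPL1 (6.38%, background 4.7%). In pair 2 alone, that is without replicate 1, 7 were higher (14.9%, against 9.5% of all gene names at that average). The study picked DRAM1 on these arrays, so that 3 of the 4 lower members are free of that choice. The median difference was 0.09 over the 48 members and 0.05 over all gene names at the average of 6. Calls of DRAM1 in the alternative fits are left out here, since it was chosen on these contrasts. With probes left out that were dim in both groups, limma called RB1CC1 lower (background 2.47%) and 0 members higher (background 1.45%). With the normexp background correction, of the 47 members without DRAM1, it called RB1CC1, ULK2 and BNIP3 lower (background 2.18%). It called ULK1 and GABARAPL1 higher (background 1.28%). With the authors' deposited log2 values, and DRAM1 set aside, it called no member lower (background 0.881%) and called GABARAPL1 higher (background 0.38%). The normexp and deposited backgrounds include dim genes, which nearly all members are not, so members cannot be read against them like for like. By the fold rule, with its average of at least 6, the members' shares lay near the background.

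With the antagomiR, 46 of 48 members reached the average in TT, and ATG14 and ATG4C did not. MAP1LC3A was lower by the fold rule (2.17%, background 0.714%). DRAM1 and WIPI1 were higher (4.35%, background 1.81%). The study picked DRAM1 on these arrays, and without it 1 of 45 members was higher. The median difference was -0.01 over the members, as over all gene names at that average (-0.01). Of the 46 members that reached the average in both lines, 6 were lower in both mimic pairs and higher in both antagomiR pairs (13.0%, against 13.4% of all such genes). They were DRAM1, RB1CC1, ATG2B, ATG4A, SQSTM1 and BNIP3. DRAM1 counts among the 6 although the study selected it by these contrasts. A further 8 were higher with the mimic and lower with the antagomiR in all pairs (17.4%, against 17.2% of all such genes). These were DRAM2, ATG10, ATG16L2, ATG9A, MAP1LC3A, GABARAPL1, LAMP2 and CTSL1. Other members moved the same way with both reagents in all pairs. There were 6 higher in both (ULK1, ATG2A, ATG4D, WIPI1, OPTN and MITF) and 5 lower in both (ULK2, UVRAG, ATG7, NBR1 and RAB7A). The shares of all genes that did so were not counted.

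**Figure D1:**
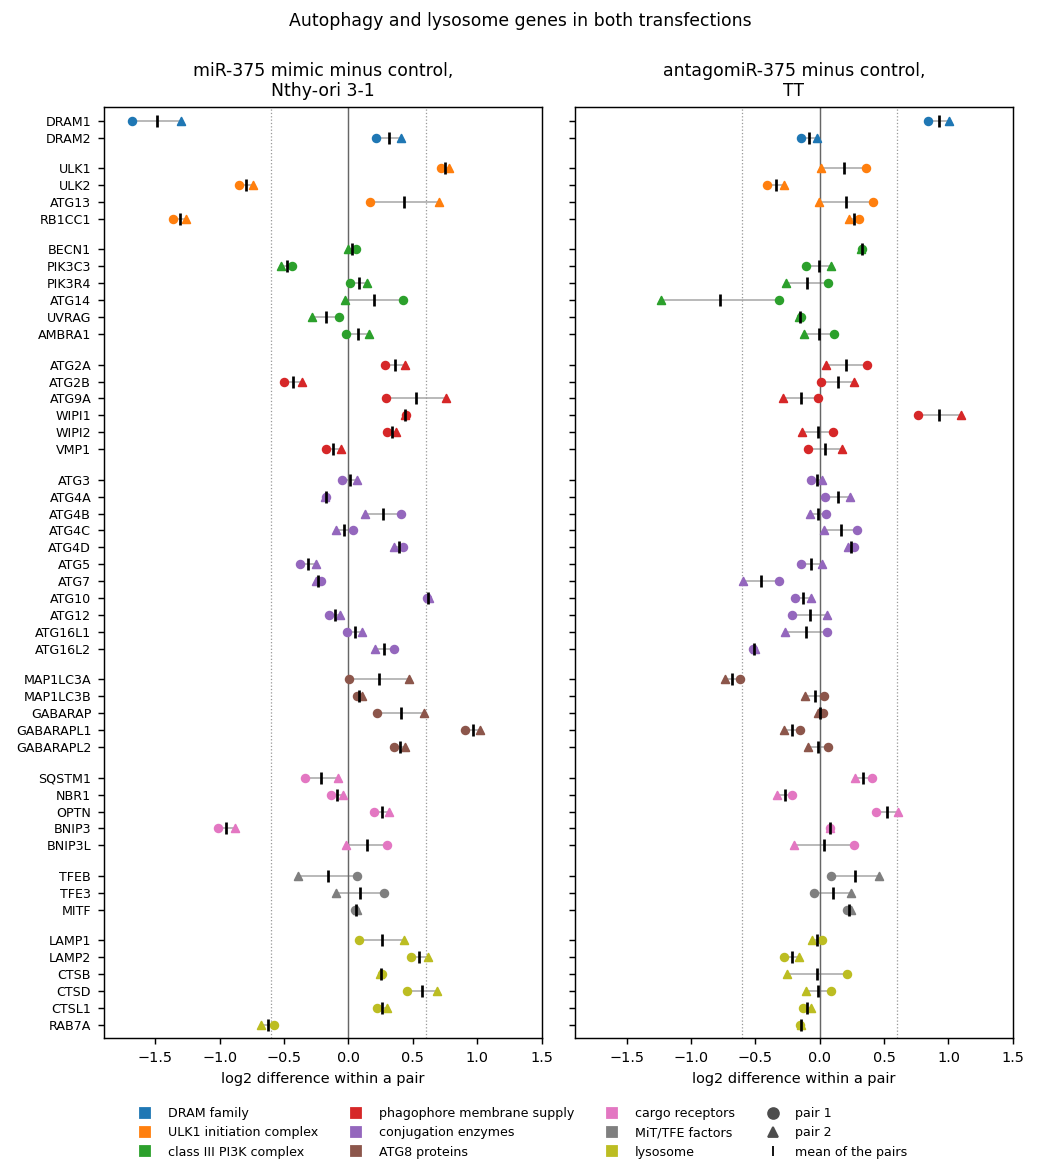
Log2 difference of each of the 48 members in replicate pair 1 (circle) and pair 2 (triangle), treated minus control, with the mean of the pairs (bar), coloured by role. Left, mimic in Nthy-ori 3-1; right, antagomiR in TT; dotted lines mark a difference of 0.6 either way. DRAM1 stands at -1.49 and 0.92, and most members lie between the dotted lines.

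DRAM1 gave the largest difference of the members with the mimic. Its probe lies at chr12:102317112-102317171 (hg19, plus strand), and its first 30 bases are shown because all DRAM1 values rest on this probe.
DRAM1 probe: cctcacgatggagtttcatgcttcattttc
The ORI control arrays gave 10.24 and 9.88 and the mimic arrays 8.56 and 8.58. The groups did not overlap, and the difference was -1.49 ± 0.16 (SE, 2 pairs), or 2.81-fold lower. The TT control arrays gave 8.44 and 8.36 and the antagomiR arrays 9.28 and 9.37, a difference of 0.92 ± 0.10 or 1.90-fold higher. Both are given with no test, since the study selected DRAM1 by these contrasts. DRAM2, a related lysosomal membrane protein, differed by 0.31 ± 0.11 with the mimic and -0.08 ± 0.09 with the antagomiR, inside the fold limits in both.

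**Figure D2:**
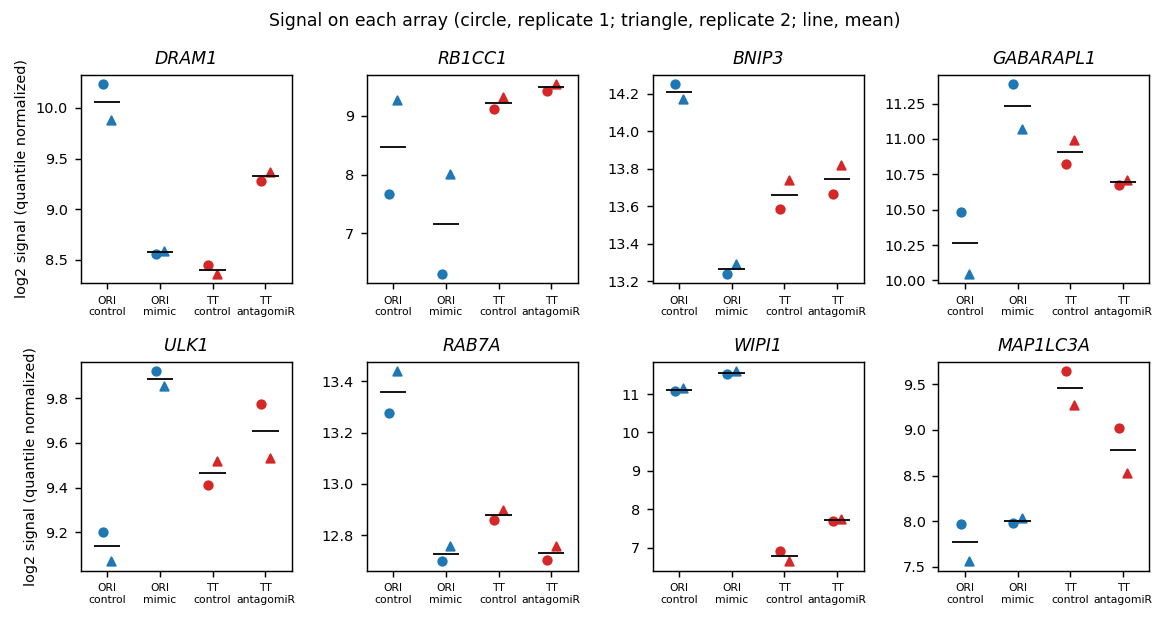
Quantile normalized log2 signal of 8 members on each array, with replicate 1 as a circle, replicate 2 as a triangle and the group mean as a line. Each panel has its own y axis, which does not start at 0. The mimic arrays of DRAM1 (8.56 and 8.58) lie below both ORI controls, and RB1CC1 shows a gap between replicates (7.68 and 9.26 in controls) wider than its treatment difference of -1.31.

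In the ULK1 complex the members differed in direction. RB1CC1 (FIP200), the scaffold of the complex, was at 7.68 and 9.26 on the ORI control arrays and at 6.31 and 8.00 on the mimic arrays. The groups overlapped because replicate 2 was brighter than replicate 1 in both, but the pair differences were close together (-1.36 and -1.26). Their mean was -1.31 ± 0.09, with an adjusted p of 0.318 (limma), of 0.0435 with dim probes left out and of 0.0508 with the deposited values. Without the replicate block, limma gave RB1CC1 an adjusted p of 0.906. ULK1, the kinase, was at 9.20 and 9.07 in ORI controls and at 9.92 and 9.85 with the mimic. These groups did not overlap, and the difference was 0.75 ± 0.08 (adjusted p = 0.318, limma). ULK2, a second kinase, gave -0.80 ± 0.09 on its brightest probe and 0.51 ± 0.09 on another, as described with the other genes of discordant probes. ATG13, the regulatory subunit, gave 0.43 ± 0.20 and -0.36 ± 0.20 on its probes. In TT none of the 4 passed the fold rule, with differences from -0.34 (ULK2) to 0.27 (RB1CC1).

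In the class III kinase complex no member passed the fold rule in either line. PIK3C3, the catalytic subunit, was furthest from 0 with the mimic, at 10.002 and 10.22 on control arrays and 9.57 and 9.70 on mimic arrays (-0.48 ± 0.09). BECN1, PIK3R4 and AMBRA1, which scaffold and regulate the complex, differed by 0.03 to 0.08. UVRAG, a subunit that acts in autophagosome and endosome maturation, differed by -0.18 ± 0.11. With the antagomiR BECN1 was at 10.56 and 10.57 against 10.23 and 10.25 in TT controls (0.32 ± 0.08). ATG14, which targets the complex to the phagophore, gave -0.78 ± 0.32 in TT. It was too dim for the rule there, and 1 antagomiR array was not well above background.

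The proteins that supply and shape the membrane were higher in both mimic pairs in 4 of 6 cases (41.2% of all gene names at an average of at least 6 were). The 4 were ATG9A, the lipid scramblase (0.52 ± 0.18), WIPI1 and WIPI2, which bind the marked membrane (0.44 ± 0.08 and 0.33 ± 0.08), and ATG2A, a lipid transfer protein (0.36 ± 0.10). ATG2B differed by -0.43 ± 0.09 and VMP1, a scramblase of the endoplasmic reticulum, by -0.12 ± 0.09. With the antagomiR WIPI1 had the largest difference of the 48 members. The TT control arrays were at 6.93 and 6.66 and the antagomiR arrays at 7.69 and 7.75, so that the groups did not overlap. The difference was 0.93 ± 0.14 (adjusted p = 0.512, limma), or 1.90-fold higher. The other 5 lay between -0.15 and 0.21 in TT.

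Of the 11 conjugation enzymes, 1 passed the fold rule with the mimic on its brightest probe. ATG10, the E2-like enzyme for ATG12, was at 7.31 and 7.50 in ORI controls and 7.92 and 8.12 with the mimic (0.62 ± 0.08, adjusted p = 0.318, limma). The groups did not overlap. ATG4D, ATG16L2 and ATG4B differed by 0.39, 0.28 and 0.27, ATG5 by -0.32, ATG7, the E1-like enzyme, by -0.23, and ATG4A by -0.18. A second ATG7 probe gave -1.26 and met the rule, as described with the other probes. ATG3, ATG12, ATG16L1 and ATG4C lay between -0.11 and 0.05. In TT none passed. ATG16L2, a relative of the ATG16L1 scaffold, was at 8.87 and 8.80 with the antagomiR and at 9.39 and 9.30 in controls (-0.51 ± 0.08). ATG7 was at 6.82 and 6.39 against 7.14 and 6.99 (-0.46 ± 0.13). These groups did not overlap either.

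On their brightest probes the 5 ATG8 proteins were all higher in both mimic pairs (41.2% of all gene names at that average), by 0.09 to 0.96. Their median was 0.40. GABARAPL1 was at 10.48 and 10.05 in ORI controls and at 11.39 and 11.07 with the mimic. The groups did not overlap, and the difference was 0.96 ± 0.09 (adjusted p = 0.318, limma, and 0.0317 with normexp). Its second probe gave 0.84 ± 0.11. GABARAP and GABARAPL2 differed by 0.41 ± 0.15 and 0.40 ± 0.08, MAP1LC3A by 0.24 ± 0.18 and MAP1LC3B by 0.09 ± 0.08. Pair 1 of MAP1LC3A gave only 0.006. The second MAP1LC3B probe gave -0.14, with -0.24 and -0.03 in its pairs. With the antagomiR the group's median was -0.04. MAP1LC3A was at 9.02 and 8.53 against 9.64 and 9.27 in TT controls, which is -0.68 ± 0.09 (adjusted p = 0.512, limma) with no overlap. GABARAPL1 differed by -0.22 ± 0.09, and the other 3 by -0.04 to 0.01 on their brightest probes. The second probe of MAP1LC3B gave 0.70 ± 0.20, with 0.97 and 0.43 in its pairs.

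Of the cargo receptors BNIP3, a mitochondrial receptor for mitophagy that hypoxia induces, was at 14.25 and 14.17 in ORI controls and at 13.24 and 13.29 with the mimic. The groups did not overlap, and the difference was -0.95 ± 0.09 (adjusted p = 0.318, limma, and 0.032 with normexp). Its paralog BNIP3L differed by 0.14 ± 0.14. SQSTM1 (p62), which carries ubiquitinated cargo, differed by -0.21 ± 0.12 with the mimic and 0.34 ± 0.09 with the antagomiR. OPTN, another ubiquitin-binding receptor, was at 8.52 and 8.50 with the antagomiR and at 8.08 and 7.89 in TT controls (0.52 ± 0.10, no overlap). NBR1 was within 0.27 of 0 in both lines, and BNIP3 differed by 0.08 ± 0.08 in TT. The MiT/TFE factors TFEB, TFE3 and MITF lay between -0.16 and 0.09 with the mimic and between 0.10 and 0.28 with the antagomiR.

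Of the 6 members of the lysosome, 5 were higher in both mimic pairs (41.2% of all gene names at that average). None passed the fold rule on its brightest probe. CTSD, a protease, was at 11.10 and 11.32 in controls and 11.55 and 12.004 with the mimic (0.57 ± 0.12). LAMP2, a membrane glycoprotein needed for fusion and chaperone-mediated autophagy, was at 10.86 and 10.88 against 11.35 and 11.50 (0.55 ± 0.09). Another LAMP2 probe gave 0.73 ± 0.09, with 0.66 and 0.79 in its pairs, past 0.6 in both. The remaining LAMP2 probe gave 0.44 ± 0.16. LAMP1, CTSB and CTSL1 (cathepsin L) differed by 0.25 to 0.26. RAB7A, the small GTPase that marks late endosomes, went the other way, at 13.28 and 13.44 in controls and at 12.70 and 12.76 with the mimic. This was -0.63 ± 0.09, and pair 1 fell short of 0.6 (-0.58). On the brightest probes the LAMP2, CTSD and RAB7A groups did not overlap. In TT all 6 lay between -0.22 and -0.01.

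The wider list holds 101 further genes of autophagy and the lysosome, none of them a member, of which 100 were on the array. With the mimic 12 of the 93 at an average of at least 6 were higher by the fold rule (background 4.7%) and 0 were lower (background 6.31%), and the median difference over the 100 was 0.31, against 0.05 over all gene names at that average. Lysosomal hydrolases and their cofactors stood highest among the larger groups. Of these 31 genes 27 were higher in both pairs (41.2% of all) and 7 were higher by the fold rule (background 4.7%), with a median of 0.51. CTSK, a collagen-degrading cathepsin, differed by 1.40 ± 0.08 and SMPD1, acid sphingomyelinase, by 1.30 ± 0.18. ASAH1, acid ceramidase, gave 0.94 and 1.18 in its pairs. CTSC, a dipeptidyl peptidase, went the other way (-0.62 ± 0.10). Of 17 membrane, proton pump and channel genes 13 were higher in both pairs (41.2% of all), with a median of 0.45. VAMP7, a fusion protein, differed by -0.47 ± 0.08 and DDIT4, an inhibitor of mTORC1 signaling, by -0.86 ± 0.26. TP53INP1, a p53 target that binds ATG8, differed by 1.14 ± 0.35 with the mimic and by -0.69 ± 0.13 with the antagomiR. No gene of the list passed the adjusted p in either transfection (limma), and 30 and 10 of 100 had an unadjusted p under 0.05 (22.9% and 10.2% of all gene names at an average of at least 6).

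With the antagomiR the wider list had a median of -0.04, and 1 gene was higher and 0 were lower by the fold rule (background 1.81% and 0.714%). GALC, galactosylceramidase, was the higher gene (0.98 ± 0.11). TECPR1, a tether of autophagosomes to lysosomes, differed by 0.72 ± 0.15 and SESN2, a leucine sensor upstream of mTORC1, by 0.51 ± 0.17. LIPA, lysosomal acid lipase, differed by -0.53 ± 0.08 and TSC1, an inhibitor of mTORC1, by -0.52 ± 0.31. Of the 31 hydrolases and cofactors 16 were lower in both pairs and 4 higher (36.2% and 31.9% of all gene names at that average), with a median of -0.08. Other transcripts moved beside these groups. Of 5 epithelial markers 3 were lower by the fold rule with the mimic (background 6.31%), with KRT18 at -0.88, and all 5 were higher in both antagomiR pairs (31.9% of all), by 0.12 to 0.74. Their part in the differences above was not tested.

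**Figure D3:**
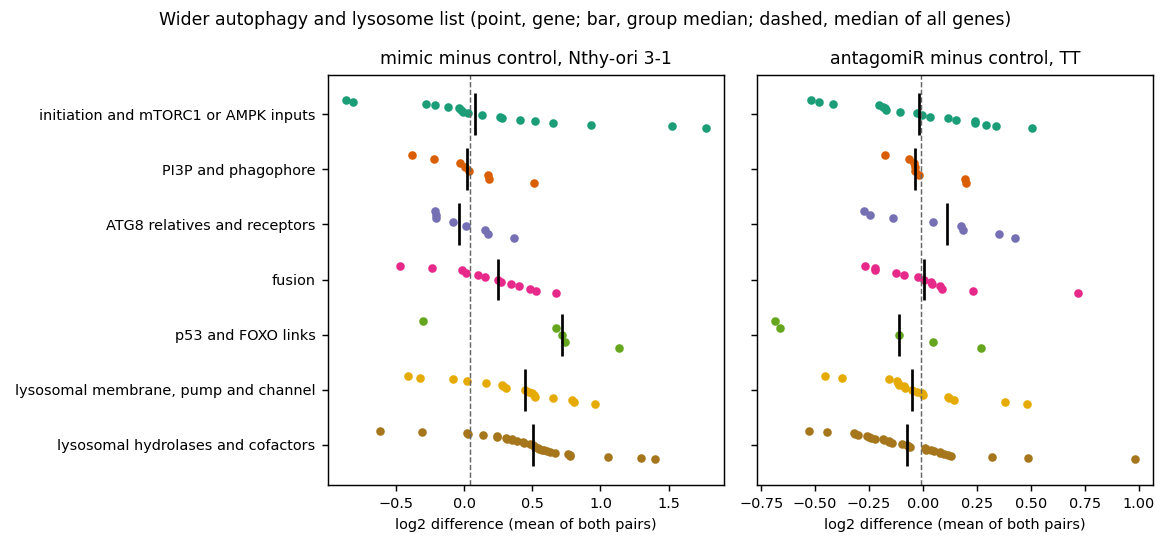
Log2 difference of the 100 genes of the wider list (points, mean of both pairs) by group, with group medians (bars) and the median of all genes with an average of at least 6 (dashed). Left, mimic in Nthy-ori 3-1; right, antagomiR in TT; the x axes differ. With the mimic the hydrolases centre on 0.51 and the membrane and pump genes on 0.45, and in TT the groups centre near 0.

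CLEAR elements, which MiT/TFE factors bind, hold the E-box CACGTG. RefSeq promoter windows (GRCh38.p14, 250 bases before to 50 after the start) were at hand for 41 of the 48 members, 1 of them (CTSL1) through the current symbol CTSL. CACGTG, which reads the same on both strands, occurred in 5 of 41 (12.2%) and in 7.43% of 27305 promoters. GTCACGTG on either strand, which contains CACGTG, occurred in 4 of 41 (9.76%) and in 2.53% of all. The LAMP1 window held CACGTG 6 times, and it was the 1 window of the 27305 with that many. Stretches of the windows are shown with the E-box in capitals, for LAMP1 with 4 of its 6 and for ATG3 with 1 of its 2, since 2 are lysosomal members and 1 is BNIP3, which was lower with the mimic. LAMP1 is at chr13:113297039-113297114 (plus strand), CTSD at chr11:1763957-1763986, ATG3 at chr3:112561963-112561992, ATG14 at chr14:55411834-55411863 and BNIP3 at chr10:131982040-131982069 (all minus).
LAMP1: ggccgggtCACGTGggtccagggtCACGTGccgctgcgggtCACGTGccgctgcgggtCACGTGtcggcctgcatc
CTSD: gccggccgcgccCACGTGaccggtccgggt
ATG3: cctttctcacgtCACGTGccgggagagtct
ATG14: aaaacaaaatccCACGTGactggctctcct
BNIP3: gcgcacgcgccgCACGTGccacacgcaccc
With the mimic these 5 genes differed by 0.26 (LAMP1), 0.57 (CTSD), 0.01 (ATG3), 0.20 (ATG14) and -0.95 (BNIP3), thus in both directions.

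The control groups compare the lines themselves, TT minus ORI. Since each slide held 1 line, slide and line cannot be told apart, and the comparison uses the same control arrays as the transfections. limma called 11 members lower in TT (22.9%, background 12.6%) and 8 higher (16.7%, background 13.6%), and 29 did not pass. The background includes dim genes, which rarely pass. Among gene names at an average of at least 6 on the control arrays 19.0% were called lower and 18.9% higher, against 10 (21.7%) and 8 (17.4%) of the 46 members there, so that both shares of members lay near the background. DRAM1 is 1 of the 11, and its controls also entered the contrasts that chose it. Its difference of -1.66 ± 0.18 is therefore a description. The median was -0.43 over the 48 members and -0.05 over all gene names. Leaving out a TT control array took away most calls, of members and of other genes alike. Without TT_CTL replicate 1 limma called 0 of 50586 probes (smallest adjusted p = 0.0507) and 0 members. Without TT_CTL replicate 2 it called 2 members lower (CTSL1 and WIPI1; 1.22% of all gene names) and 0 higher (2.05% of all). Leaving out an ORI_CTL replicate kept calls in both directions, of members and of other genes, with 1 array alone in its group. WIPI1 still differed by -4.45 without TT_CTL replicate 1 and by -4.18 without replicate 2. In these fits the lone array was assumed to vary like the other group.

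Lysosomal proteases gave the largest difference. CTSL1 was at 12.08 and 12.27 in ORI controls and at 6.39 and 6.69 in TT controls, 49.6-fold lower in TT (-5.63 ± 0.18, adjusted p = 0.00194, limma). CTSB, cathepsin B, was 4.47-fold lower (-2.16 ± 0.24, adjusted p = 0.0156), while CTSD, LAMP1, LAMP2 and RAB7A did not pass, with differences from -0.48 to 0.67. WIPI1 was at 11.07 and 11.15 against 6.93 and 6.66, 19.9-fold lower (-4.32 ± 0.16, adjusted p = 0.00243). VMP1 was also lower (-1.49 ± 0.16, adjusted p = 0.0137), and all 6 membrane supply genes were below 0. MITF was at 9.34 and 9.29 against 6.87 and 6.70 (-2.53 ± 0.14, adjusted p = 0.00431). TFEB and TFE3 did not pass (0.27 and -0.48). OPTN was the cargo receptor called lower (-1.86 ± 0.25, adjusted p = 0.0217). SQSTM1, BNIP3, BNIP3L and NBR1 did not pass, with values from -0.78 to 0.88. The 0.88 is BNIP3L's brightest probe, and its other probes gave -0.99 (adjusted p = 0.0368, limma) and -0.98 (adjusted p = 0.0504, limma).

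Other members were higher in TT. UVRAG was at 7.07 and 6.90 in ORI controls and 9.45 and 9.43 in TT controls, 5.48-fold higher (2.45 ± 0.13, adjusted p = 0.00431, limma). On their brightest probes the rest of its complex did not pass and lay between -1.15 and -0.12. A dimmer AMBRA1 probe, at 5.64 in ORI controls and 3.95 in TT controls, gave -1.69 ± 0.22 (adjusted p = 0.0199, limma). The 5 ATG8 proteins were all above 0 on their brightest probes, and MAP1LC3A (1.69 ± 0.25, adjusted p = 0.0259), GABARAPL2 (1.08) and GABARAP (0.91) passed. GABARAPL1 (0.64) and MAP1LC3B (0.39) did not. The second probe of MAP1LC3B gave -1.08 ± 0.58 (adjusted p = 0.302, limma). The conjugation enzymes were divided, with ATG4A (1.45), ATG10 (1.42), ATG4D (1.02) and ATG16L2 (0.96) higher and ATG7 (-1.69 ± 0.13, adjusted p = 0.00813), ATG4C (-1.69) and ATG12 (-0.99) lower. ATG3, ATG5, ATG4B and ATG16L1 did not pass. ULK2 was lower (-0.67 ± 0.13, adjusted p = 0.048), and ULK1, ATG13 and RB1CC1 (0.22 to 0.75) did not pass, nor did DRAM2 (-0.71).

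**Figure D4:**
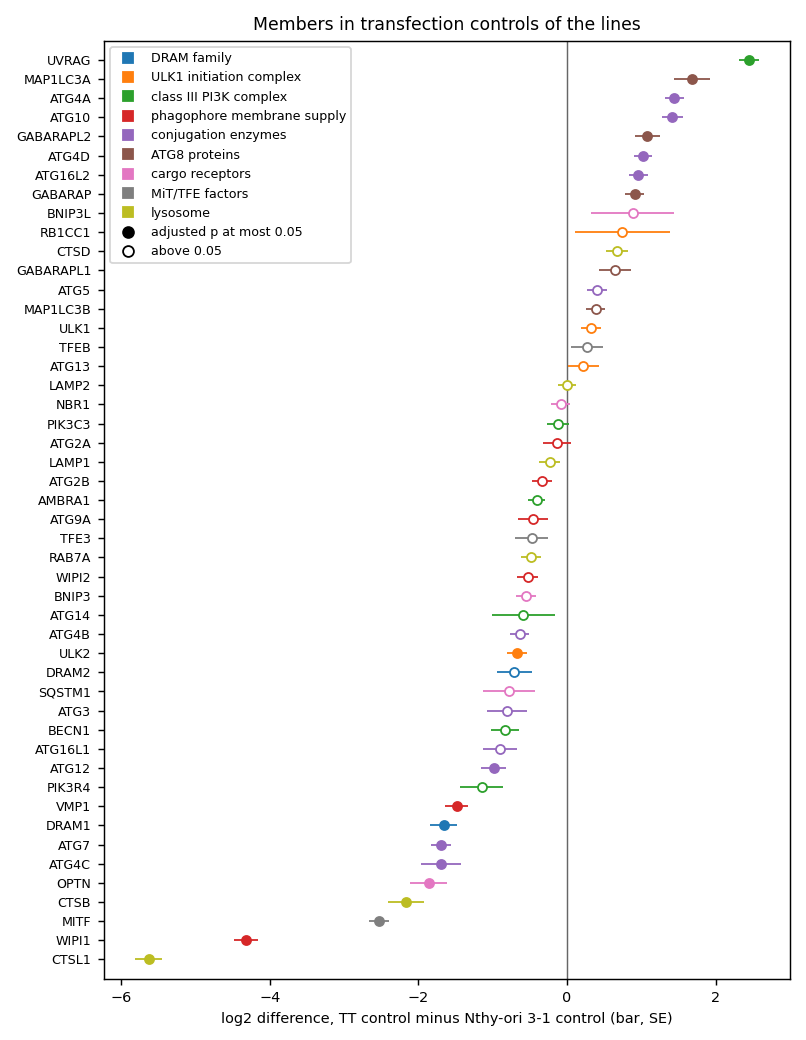
Log2 difference of each member, TT control minus Nthy-ori 3-1 control, with its SE (bar, 2 arrays per group), sorted and coloured by role. Filled points had an adjusted p of at most 0.05 over all probes. CTSL1 (-5.63) and WIPI1 (-4.32) are furthest to the left and UVRAG (2.45) to the right.

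Of the wider list 18 of 100 were called lower and 25 higher in TT (limma), against 19.0% and 18.9% of all gene names at an average of at least 6 on the control arrays. RRAGD, a GTPase of the mTORC1 pathway (3.61 ± 0.20), CTSO, a cathepsin (3.47 ± 0.16), and TP53INP1 (3.39 ± 0.23) were furthest up among genes at an average of 6. CTSZ, a carboxypeptidase (-3.26 ± 0.55), FYCO1, an adaptor for autophagosome transport (-3.10 ± 0.20), and PINK1, the kinase that starts mitophagy (-2.19 ± 0.17), were furthest down. Of the membrane, pump and channel genes 9 of 17 were higher and 0 lower, and of the hydrolases and cofactors 9 of 31 were higher and 6 lower, beside those same shares.

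Several values rest on which probe is read, since 22 members had more than 1 probe. Among genes with several probes at an average of at least 6, the signs differed in 6 of 18 with the mimic (ULK2, ATG13, MAP1LC3B, BNIP3L, TFEB and TFE3), in 5 of 14 with the antagomiR (WIPI2, MAP1LC3B, BNIP3L, LAMP2 and CTSL1) and in 5 of 16 between the controls (ATG13, ATG5, MAP1LC3B, BNIP3L and LAMP2). For ULK2 the brightest probe lies at chr17:19677582-19677641 and another nearer the gene's 3′ end at chr17:19674144-19674203 (hg19, minus strand). The first was at 8.97 and 9.00 in ORI controls and 8.12 and 8.26 with the mimic, and the second at 8.51 and 8.20 against 9.08 and 8.66. Neither pair of groups overlapped, and they differed in opposite directions (-0.80 and 0.51). In TT both were lower with the antagomiR (-0.34 and -0.31). TFEB gave -0.16 ± 0.18 on the brightest probe and 0.59 ± 0.09 on the other.

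For ATG7 the brightest probe, at chr3:11468321-11468380, differed by -0.23 ± 0.08 with the mimic. A second, at chr3:11598763-11598822 (both hg19, plus strand), was at 7.51 and 7.87 in controls and at 6.22 and 6.65 with the mimic. Its groups did not overlap, and its difference was -1.26 ± 0.08 (adjusted p = 0.318, limma, and 0.0444 with dim probes left out). The pairs gave -1.29 and -1.22, so that this probe met the fold rule. With the antagomiR the second probe gave 0.54 ± 0.23, against -0.46 ± 0.13 on the brightest probe. In TT its group means (5.38 in controls, 5.92 with the antagomiR) lay below the minimum of 6. For CTSL1 the brightest probe, at chr9:90345326-90345385, gave the 49.6-fold difference between the lines, and a second, at chr9:90343780-90343839 (both plus strand), gave -0.86 ± 0.27 (adjusted p = 0.119, limma). The first 30 bases of each probe are shown so that they can be told apart, except for the second CTSL1 probe, of which the last 30 are shown. Its capitals, GGTGGCTCA, are letters found near the start of Alu repeats and occur in 19 of the 50599 probes and in 1 member probe. Whether the repeat bears on its signal was not tested.
ULK2 brightest probe: gtatattaaaggtcttggggtagatggtgt
ULK2 probe nearer the 3′ end: aaactcccagtaaaaaagacttgggagaca
ATG7 brightest probe: aggtgtttaattcttcacattccttcttag
ATG7 second probe: ttggccccagcgtacgaggaagcgtataaa
CTSL1 brightest probe: aagacatggatcatggtgtgctggtggttg
CTSL1 second probe: atatattagggctgggtggGGTGGCTCAcg

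**Figure D5:**
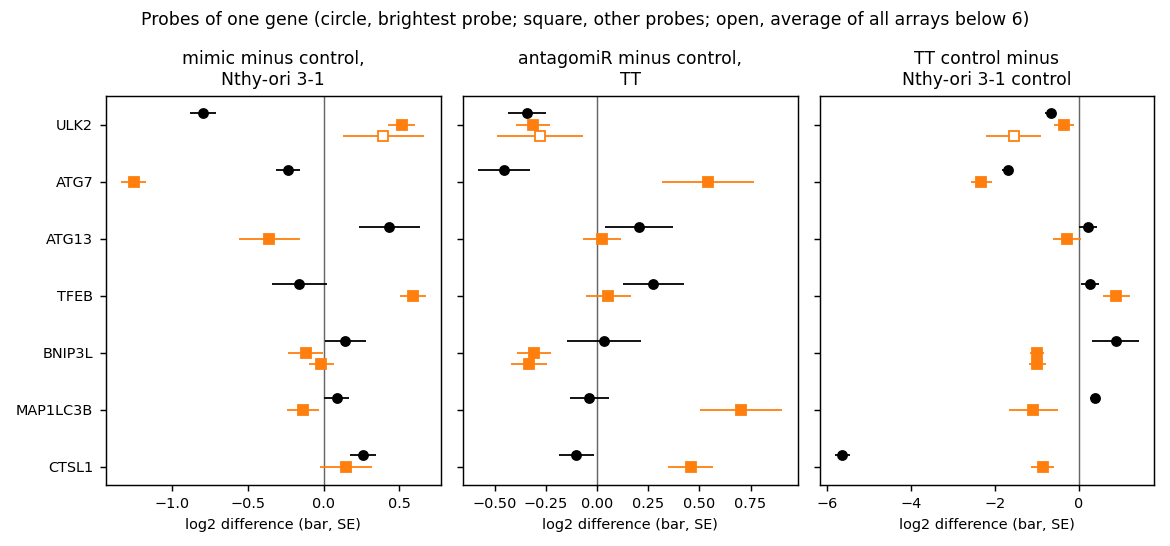
Log2 difference of each probe of 7 members in the 3 comparisons, with its SE (bar). Circles are the brightest probe, squares the other probes, and open symbols have an average below 6 over all arrays; the x axes differ. ULK2, ATG13 and TFEB have probes on both sides of 0 with the mimic, and the CTSL1 probes lie at -5.63 and -0.86 between the lines.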

How the data were processed

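The members and gene lists were chosen with earlier results of these data known. Per the file headers each array's deposited file is Agilent Feature Extraction output, with processed, mean and median intensity per spot, not normalized between arrays. The authors also deposited log2 values, which follow the log2 median intensity (r at least 0.998 on each array) and were normalized within each line. Here log2 processed intensity was used. Control and outlier spots (341 to 428 per array) were left out, spots of a probe averaged and quantiles equalized over the 8 arrays (limma 3.58.1 under R 4.3.3). Each line was fitted alone with the replicate number as a block, because equal numbers share a slide (correlation of their deviations 0.785 in ORI and 0.33 in TT). Controls of the lines were compared on their 4 arrays. Adjusted p (Benjamini-Hochberg) cover all probes without missing values (50584 to 50594). In simulated data with 200 changed probes and a prior of 1 degree of freedom 0 were called in each comparison, and with a prior of 4 there were 160 in ORI, 190 in TT and 184 between controls.

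The brightest probe over the 8 arrays stood for a gene. Of the 48, 47 had it well above background on all arrays. Named were DRAM1, the 10 members furthest from 0 in each comparison with 1 sign in both pairs (between controls, groups that do not overlap) and a mean signal of 6 or more, and 3 genes of the wider list in each direction, with further genes chosen after their values were seen (ASAH1, the second probes). Alternatives were normexp (offset 50), 75th percentile scaling, normalization within each line, the deposited values, dim probes left out, outlier spots kept, a variance trend, the mean of a gene's probes, no replicate block, both lines together, the slide as a random block, other fold and average limits, and each replicate left out. The number of arrays limits the precision.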

Additional observations from a re-analysis of the deposited data

How the results depend on the processing

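Each line's fit had 1 residual degree of freedom and a limma prior of 0.994 in ORI and 1.13 in TT. The RNA integrity of TT controls cannot be told apart from the treatment. With no replicate block 0 members were called in either line, as in the paired fit. With the mimic 6 members were called with normexp (8.33% lower and 4.17% higher, against 2.18% and 1.28% of all gene names). With the deposited values 2 were called (2.08% each way, against 0.881% and 0.38%). With dim probes left out 2 were called (4.17% lower and 0% higher, against 2.47% and 1.45%). The normexp and deposited backgrounds include dim genes. Each of these counts includes DRAM1, which was chosen on these contrasts. The members' median of 0.09 became 0.055 with 75th percentile scaling, 0.13 with the deposited values and 0.12 with the mean of all probes. At a fold limit of 1 there were 2 lower and 0 higher with the mimic and 0 and 0 with the antagomiR. Leaving out a replicate gave 4 to 5 lower and 3 to 7 higher with the mimic, the 7 without replicate 1. With the antagomiR 0 were lower with normexp and with the deposited values, and 1 was higher with the latter. With the mean of all probes ULK2 reversed with the mimic (0.037) and ATG7 with the antagomiR (0.042).

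Between the controls the members called lower numbered 20 with normexp (41.7%, against 14.7% of all gene names). There were 22 with normalization within each line (45.8%, against 29.4%) and 28 with the deposited values (58.3%, against 27.9%). They numbered 17 with a variance trend (35.4%, against 13.6%) and 18 with all 8 arrays and slide as a random block (37.5%, against 15.1%). In these settings 8 to 10 members were higher (16.7% to 20.8%, against 11.3% to 15.7% of all gene names). Lower calls numbered 10 with 75th percentile scaling (20.8%, against 11.1%) and 11 with outlier spots kept (22.9%, against 12.7%). There were 9 with the mean of all probes (18.8%, against 13.2%) and 15 with dim probes left out (31.2%, against 22.5%). Except in the last setting, all gene names include dim genes, which rarely pass, so these shares are not like for like. Leaving out a control array left 1 array alone in its group, and those calls are not counted here. The members' median of -0.43 was -0.34 with normexp, -0.73 within each line and -0.68 with the deposited values, and -0.41 to -0.30 with an array left out. That of the wider list, 0.10, was -0.24 within each line, -0.21 with the deposited values and 0.19 with dim probes left out. Normalization within each line moved the median of all genes from -0.05 to -0.38, and the deposited values to -0.37. The cause of the other shifts was not tested. Of 120 values of named members under alternatives with the mimic, DRAM1 included, 1 reversed direction (ULK2). With the antagomiR 1 of 120 did (ATG7), and between the controls 0 of 130 did. Sides of the threshold are not pooled over the comparisons, since no gene passed in the main fit of either transfection.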
